A study of Homo sapiens with 6 samples.

Results

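Aminoacyl-tRNA synthetases join each amino acid to its own tRNA, and the charged tRNA then carries that amino acid to the ribosome. Human cells keep a set of these enzymes in the cytosol and a second set in mitochondria, both encoded in nuclear genes, and the glycine and lysine enzymes of both places come from shared genes. Class I and class II enzymes differ in the fold of the catalytic domain. In the cytosol, several of the enzymes sit together with the scaffold proteins AIMP1, AIMP2 and EEF1E1 in the multisynthetase complex. Genes were taken from the deposited table by symbol alone, as those named by a letter followed by ARS with or without a number (32 genes) and 7 further genes listed by name. The 39 genes described here, out of 19792 in the table, are 18 cytosolic enzyme genes or subunits, 16 mitochondrial enzymes, the 2 shared genes GARS and KARS, and the 3 scaffolds. The table uses older symbols for 18 of them, such as WARS for WARS1 and TARSL2 for TARS3, and those are kept here.

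RNA-seq was performed on BT-549 cells, a human triple-negative breast cancer line, carrying a WDR5 shRNA in a doxycycline (DOX)-inducible vector with puromycin resistance. The vehicle group (0.1% DMSO) and the DOX group (500 ng/ml for 7 days) had 3 cultures each, and all 6 cultures carried the shRNA. What was analysed is the authors' mean normalized count of each gene over the 6 libraries, which pools vehicle and DOX. Values of single libraries and the difference between the groups were not analysed here, so no spread between cultures stands behind any level below, neighbours in an order of levels cannot be told apart by a test, and library depth is unknown.

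WDR5, the targeted gene, had an authors' mean normalized count of 1143.0, and a pooled mean does not show whether it was lower with DOX. The total over all genes was 26551206, and 6244 genes had a mean count under 10. The line was checked against its markers by mean count. ESR1 and PGR, the hormone receptors that triple-negative tumors lack, were at 0.79 and 0.801. ERBB2, the other receptor used to define such tumors, was not low in this way, at 1221, above WDR5. The mesenchymal genes VIM, CDH2 and ZEB1 were at 47782, 4093 and 7333, against 59.6 for CDH1 and 1.30 for EPCAM, which mark epithelial cells, and 44.7 for the leukocyte gene PTPRC. To compare genes, each mean count was divided by the length of the gene's canonical transcript in GENCODE 44 and is given as a level per kb. Over the 18151 genes with a length, the median level was 81.8 per kb.

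The cytosolic synthetase genes were expressed at high levels and their mitochondrial counterparts near the middle of the expressed genes. All 39 genes had a mean count above 10, and 36 of 39 had a level per kb above that of the median gene. Together, they held 0.709% of the total mean count, of which the 18 cytosolic genes made up 0.565%, GARS and KARS 0.0808%, the 16 mitochondrial enzymes 0.0498% and the scaffolds 0.0135%. The median level was 2532 per kb for the cytosolic genes, with a median percentile of 96.2 among all genes with a length, and 169 per kb for the mitochondrial enzymes, with a median percentile of 60.7. The ratio of these medians was 14.97 per kb of canonical transcript. It was 16.1 when the counts were not divided by length, 12.9 with the longest transcript, 8.79 with the union of all annotated exons and 8.46 with coding length. For comparison, the 12933 genes with a mean count of at least 10 had a median of 210.4 per kb.

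**Figure D1:**
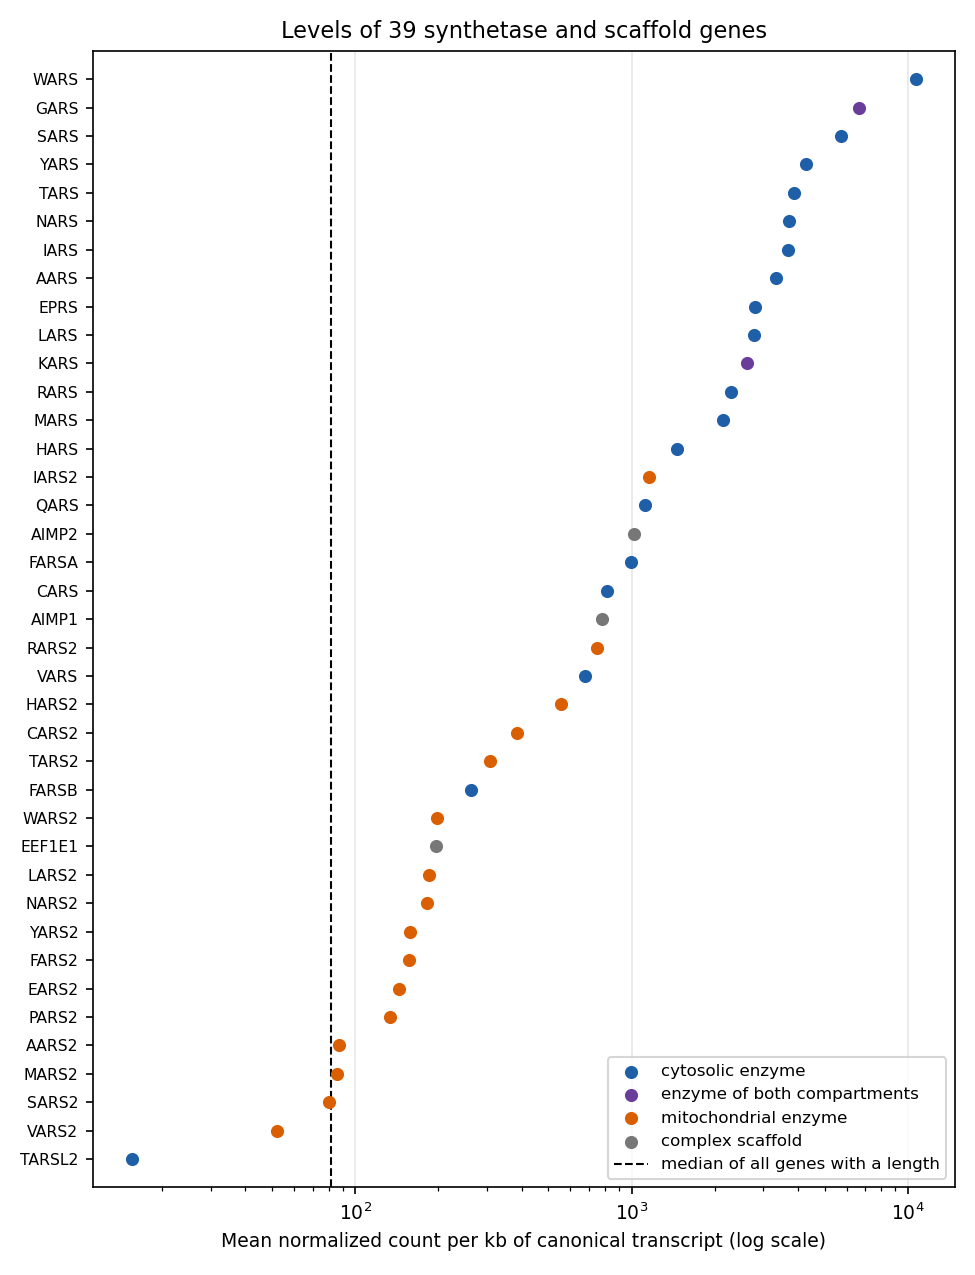
Level of each of the 39 genes as the authors' mean normalized count per kb of canonical transcript (horizontal log axis), ordered from the highest to the lowest and coloured by the place of the protein; each point is 1 mean over 6 libraries with no error available. WARS at 10669 per kb is at the top and TARSL2 at 15.6 at the bottom, and the dashed line marks the median gene at 81.8.

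WARS, which charges tryptophan tRNA, had the highest level of the family, with a mean count of 28154 and 10669 per kb (99.4 percentile). The gene lies on chromosome 14 (GRCh38, chr14:100333790-100376805, minus strand). This level was 0.929 times that of EEF2, the cytosolic translocation factor. By coding length WARS was 1.415 times EEF2, and by undivided count 0.777 times. EEF1A1, the elongation factor that receives charged tRNA from the synthetases, was 4.16 times higher than WARS per kb. GARS, for glycine, followed at 6666 per kb, then SARS (serine) at 5722, YARS (tyrosine) at 4266, TARS (threonine) at 3886, NARS (asparagine) at 3709, IARS (isoleucine) at 3689 and AARS (alanine) at 3325. EPRS, a fused enzyme for glutamate and proline, was at 2808 per kb and LARS, for leucine, at 2778. KARS (lysine) at 2609, RARS (arginine) at 2287, MARS (methionine) at 2135 and HARS (histidine) at 1456 per kb completed the 14 highest genes. None of these is a mitochondrial enzyme, which holds for the canonical transcript. The mitochondrial IARS2 was above HARS with the longest transcript (92.5 against 82.4 percentile) and with undivided counts (92.7 against 88.6). With the union of exons IARS2 (93.99 percentile) was also above GARS (93.5), MARS (92.8), IARS (91.5) and LARS (89.9).

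The remaining cytosolic genes overlapped with the mitochondrial ones. QARS, for glutamine, was at 1123 per kb, CARS (cysteine) at 814 and VARS (valine) at 679. FARSA and FARSB are the subunits that assemble into the phenylalanine enzyme. Their mean counts were alike at 1802 and 1774, whereas the levels per kb were 995 and 262, since the canonical FARSB transcript has 6761 bases and that of FARSA 1811. Divided by coding length in place of the whole transcript, FARSA was 1.18 times FARSB. The lowest gene of the family was TARSL2, a cytosolic enzyme related to TARS, with a mean count of 54.2 and 15.6 per kb (35.4 percentile), and TARS was 249.7 times higher per kb.

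Enzymes of the multisynthetase complex, without its scaffolds, stood within a narrower range than the cytosolic or shared enzymes outside it. The 7 enzymes of the complex described here (IARS, EPRS, LARS, KARS, RARS, MARS and QARS) had a median of 2609 per kb and ranged from 1123 to 3689, a 3.29-fold range. The 13 other cytosolic or shared genes had a median of 3325 and ranged from 15.6 to 10669, with TARSL2 and WARS at the ends. A range over more genes tends to be wider, and the difference between these ranges was not tested. With the canonical transcript the scaffolds were lower, with AIMP2 at 1019 per kb, AIMP1 at 782 and EEF1E1 at 195. With them included, the 10 complex members ranged from 195 to 3689 per kb, an 18.9-fold range. The order of AIMP1 and AIMP2 depended on the length used. AIMP1 was 0.767 times AIMP2 per kb of canonical transcript, 1.82 times by coding length and 1.775 times by undivided count. The value of EEF1E1 is uncertain, because 37.5% of its transcript is shared on the same strand with the readthrough gene EEF1E1-BLOC1S5, which has no row in the table, so the counting could have split these reads. By class, leaving out EPRS, which holds both, the 9 class I and 10 class II cytosolic or shared genes had medians of 2287 and 2967 per kb, and the 9 and 7 mitochondrial enzymes of the same classes had medians of 185 and 156.

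Among the mitochondrial enzymes, IARS2 stood above the others at 1156 per kb (90.9 percentile), a level above those of QARS, FARSA, CARS, VARS, FARSB and TARSL2 in the cytosolic set. RARS2 followed at 747, HARS2 at 553, CARS2 at 386 and TARS2 at 307. The next 7, WARS2 at 197, LARS2 at 185, NARS2 at 181, YARS2 at 157, FARS2 at 156, EARS2 at 144 and PARS2 at 134 per kb, lay close together. AARS2 at 87.2 and MARS2 at 85.9, the latter a gene of 1 exon on chromosome 2, were near the median gene. SARS2 at 79.99 and VARS2 at 52.2 were below it. The values of these last 2 genes are uncertain: 77.5% of the SARS2 transcript and 100% of the VARS2 transcript are annotated in GENCODE 44 as exons of another gene on the same strand that has no row in the table. With the canonical transcript, no cytosolic gene apart from TARSL2 was below the mitochondrial median, and no mitochondrial enzyme reached the cytosolic median. With the union of exons, IARS2 was above the cytosolic median, at the 93.99 percentile as against 92.8 for MARS and 91.5 for FARSA.

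Amino acids with separate enzymes offer a comparison within a pair. EPRS was paired with both EARS2 and PARS2, and the mean of FARSA and FARSB with FARS2, which gives 16 pairs. The cytosolic enzyme had the higher level per kb in 16 of 16 pairs, with a median ratio of 17.3 and a range from 2.11 to 71.5. These are ratios of pooled means without an error, so a small ratio cannot be told from 1. The ratio was above 10 in 11 pairs with the canonical transcript, and in 9 to 11 with the other treatments of length. With the canonical transcript, serine had the highest (SARS over SARS2, 71.5, with the limit on SARS2 given above), followed by tryptophan (WARS over WARS2, 54.1), alanine (38.1), tyrosine (27.2), methionine (24.9), proline (21.0), asparagine (20.5), glutamate (19.6), leucine (14.99), valine (13.0) and threonine (12.7). This order changed with the length used. With the union of exons asparagine was highest at 90.2, above serine at 57.3 and tryptophan at 30.9, and with the longest transcript the asparagine ratio was 43.8.

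**Figure D2:**
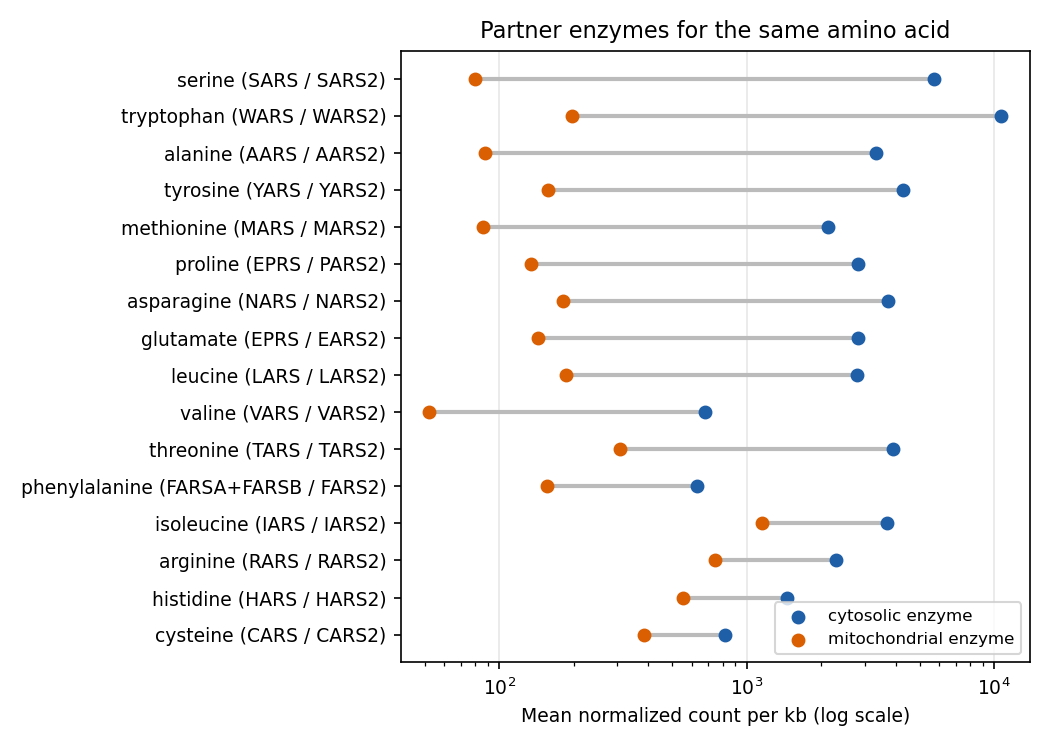
Mean normalized count per kb (horizontal log axis) of the cytosolic (blue) and mitochondrial (orange) enzyme for the same amino acid, joined by a grey line, in the order of their ratio; each point is a pooled mean with no error available. The lines are longest for serine and tryptophan and shortest for histidine and cysteine.

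With the canonical transcript, the other 5 pairs had ratios of 4.02 or less. The ratio was 4.02 for phenylalanine (628.7 per kb as the mean of FARSA and FARSB, FARS2 156), 3.19 for isoleucine (IARS 3689 and IARS2 1156 per kb), 3.06 for arginine (RARS 2287, RARS2 747), 2.63 for histidine (HARS 1456, HARS2 553) and 2.11 for cysteine (CARS 814, CARS2 386). In the cysteine pair the cytosolic enzyme was low for its set and the mitochondrial one high, whereas in the isoleucine pair both were high for their sets. The choice of transcript length moved these pairs in both directions. The arginine ratio was 8.93 with the longest transcript and 14.96 with the union of exons, and the phenylalanine ratio was 8.43 and 9.25 in the same order. With the longest transcript as length the histidine ratio became 0.940, and with the union of all annotated exons histidine and isoleucine became 0.546 and 0.748, whereas all 16 ratios were above 1 with coding length or with undivided counts.

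**Figure D3:**
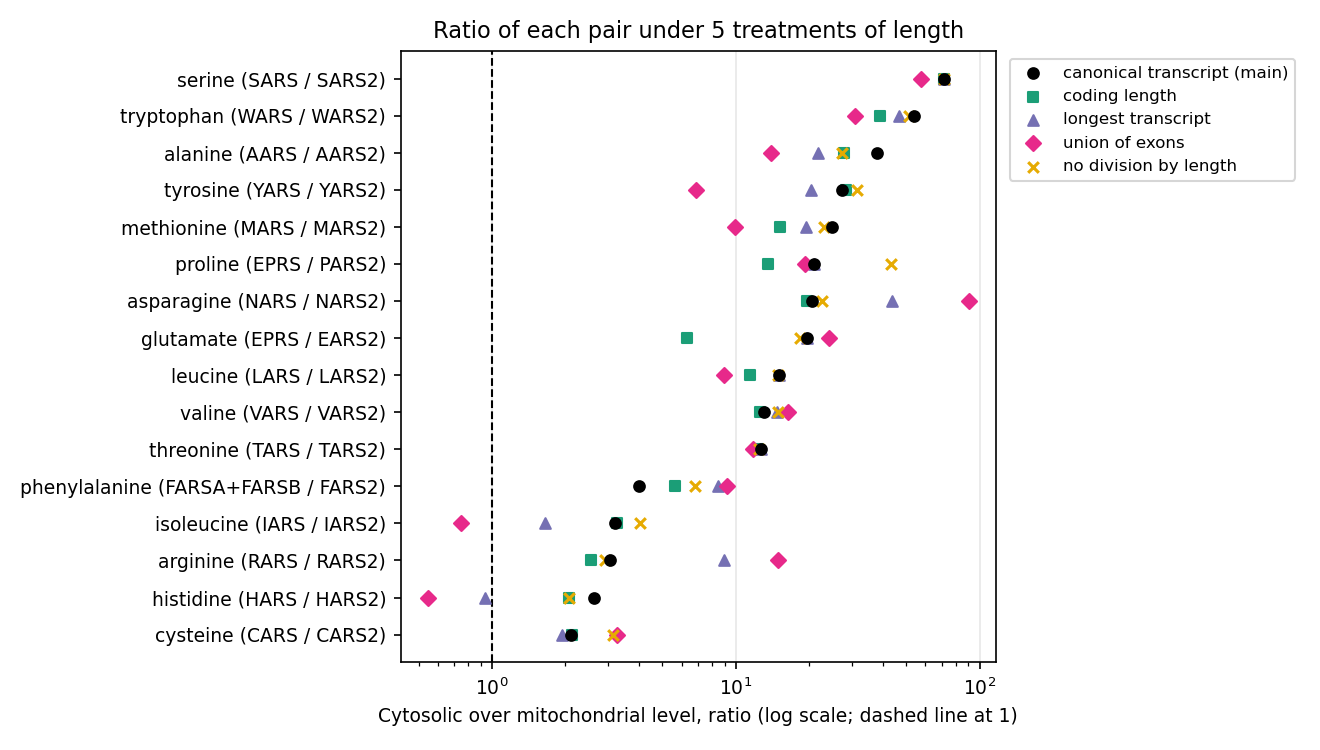
Ratio of the cytosolic to the mitochondrial level for each of the 16 pairs (horizontal log axis, dashed line at 1) with the canonical transcript (black), the coding length, the longest transcript, the union of exons, or no division by length. The 3 points left of the line are the union of exons for isoleucine at 0.748 and histidine at 0.546, and the longest transcript for histidine at 0.940.

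HARS and HARS2 are neighbours on chromosome 5 and are transcribed away from each other, from canonical start sites at 140691370 (minus strand) and 140691455 (plus strand) that are 85 bases apart. Their mean counts were 2836 and 1365. The 84 bases between the start sites are shown because both genes are read outward from this stretch; other annotated transcripts of both genes start elsewhere, since the GENCODE 44 span of HARS ends at 140691537 and that of HARS2 begins at 140691430. Of the HARS2 transcript, 6.16% is shared with ZMAT2. It is the GRCh38.p14 sequence of chr5:140691371-140691454 from RefSeq, written on the plus strand with HARS to the left and HARS2 to the right, and capitals mark the letters CCGGAAG, an ETS-type motif, on either strand:
HARS to HARS2: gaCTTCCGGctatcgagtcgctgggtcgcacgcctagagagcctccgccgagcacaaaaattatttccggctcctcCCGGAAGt

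Such head-to-head neighbours, with a protein-coding start on the other strand within 1000 bases upstream, were found for 10 of the 39 genes (25.6%) and for 13.2% of the 12159 protein-coding genes with a mean count of at least 10. HARS and HARS2 count as 2 of the 10. RARS2, with a mean count of 1674, lay 148 bases from ORC3 (1516), a subunit of the origin recognition complex. SARS2 (154) lay 181 bases from MRPS12 (704.5), which encodes a protein of the mitochondrial ribosome. KARS (5195) lay 108 bases from TERF2IP (1364), a telomere protein gene, and AIMP2 (1221) lay 223 bases from the mismatch repair gene PMS2 (1325). The other 4 were YARS beside S100PBP, AIMP1 beside TBCK, EARS2 beside UBFD1 and FARS2 beside LYRM4, at 295, 341, 377 and 563 bases.

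Promoters of 33 of the 39 genes were matched in RefSeq, each from 250 bases before RefSeq's start site to 50 after it. These start sites need not be those of the canonical transcripts above: the AARS window, 187 bases upstream by RefSeq, ends within the GENCODE span of the gene, which reaches 70289707. The letters TGATGNAA are the core of the C/EBP-ATF response element, to which ATF4 binds with C/EBP partners when amino acids are short. On either strand, this core was found in 7 of the 33 promoters (21.2%), as against 1.66% of the 9943 promoters of expressed genes (mean count of at least 10) and 3.67% of all 27305 promoters. The holders were AARS, CARS, IARS, MARS, NARS and TARS, all cytosolic, and the mitochondrial YARS2. In 5 of the 33 promoters (15.2%) its first base was within 15 bases of the start site, a limit chosen after the places were seen, as against 24 of the 9943 (0.241%). A match of letters is a description and not a binding site.

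The 7 matches are shown so that their letters can be compared: those of the 6 cytosolic genes are the same, on one strand or the other, and YARS2 differs from them in the free position of the motif. Each line gives 30 bases of GRCh38.p14 from RefSeq, read 5′ to 3′ on the strand of the gene, with the motif in capitals (TTGCATCA is TGATGCAA on the other strand):
AARS: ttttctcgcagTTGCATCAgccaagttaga
CARS: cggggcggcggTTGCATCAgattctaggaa
IARS: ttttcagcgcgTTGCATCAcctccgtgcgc
MARS: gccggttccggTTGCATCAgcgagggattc
NARS: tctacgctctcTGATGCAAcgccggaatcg
TARS: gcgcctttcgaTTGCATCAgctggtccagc
YARS2: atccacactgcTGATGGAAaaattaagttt

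These windows are at chr16:70289675-70289704 (minus strand) for AARS, chr11:3057407-3057436 (minus) for CARS, chr9:92293692-92293721 (minus) for IARS, chr12:57488053-57488082 (plus) for MARS, chr18:57621804-57621833 (minus) for NARS, chr5:33440956-33440985 (plus) for TARS and chr12:32756076-32756105 (minus) for YARS2. The motif began 13, 4 and 2 bases before the start site in IARS, MARS and CARS, at base 3 of the transcript in TARS and at base 15 in NARS. In AARS and YARS2 it lay 187 and 197 bases upstream of RefSeq's start site, although the AARS window is inside the GENCODE span of that gene. The 6 cytosolic holders had a median level of 3507 per kb (range 814 to 3886) and the 10 other cytosolic or shared genes with a matched promoter had a median of 2448 (range 262 to 10669), so the ranges overlapped. YARS2 was at 157 per kb, below the mitochondrial median.

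**Figure D4:**
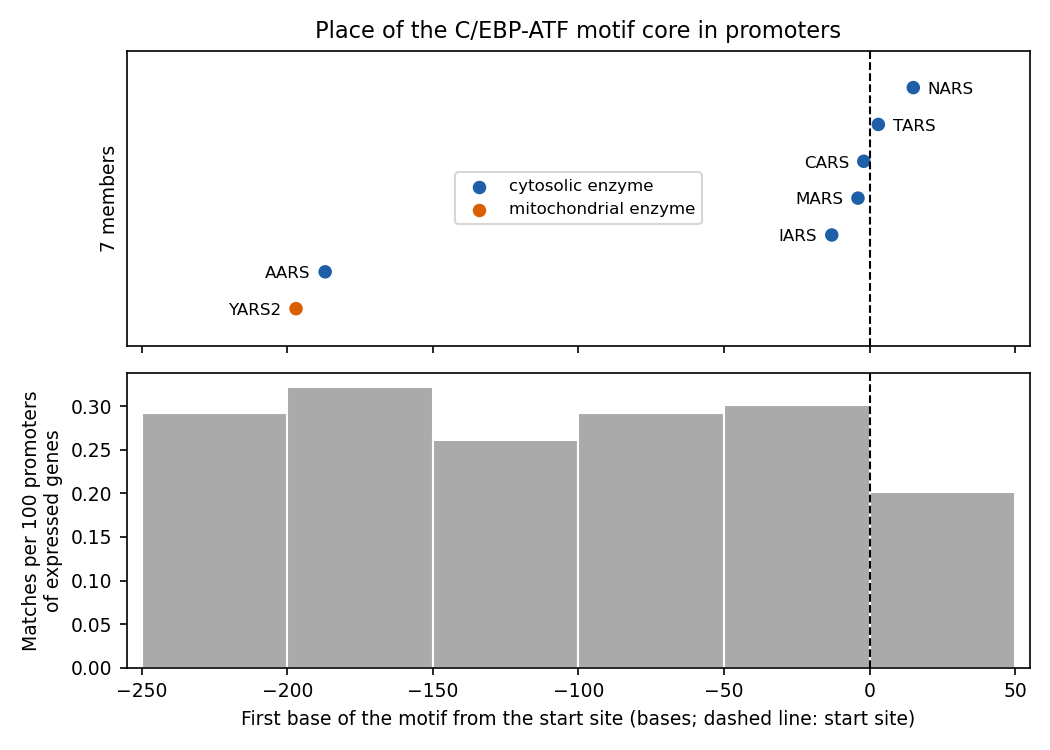
Distance in bases from the start site (dashed line) to the first base of the C/EBP-ATF motif core, for the 7 members that hold it (upper panel, coloured by compartment, 1 row a gene) and as matches per 100 promoters in 50-base bins over 9943 expressed genes (lower panel). Of the members, 5 are within 15 bases of the start, whereas the bins of expressed genes lie between 0.201 and 0.322. The lowest is the last bin, which has fewer possible first bases, since a match must fit before the promoter ends 50 bases after the start.

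Of the other motifs searched on either strand, the ETS-type CCGGAAG was in 15 of the 33 promoters (45.5%, as against 19.5% of expressed genes), 8 of them of cytosolic or shared enzymes (WARS, GARS, SARS, NARS, KARS, RARS, HARS and CARS) and 6 of mitochondrial enzymes. HARS and HARS2, with canonical start sites 85 bases apart, both count among the 15, so the same sites can be counted for both. CCAAT was in 18 (54.5%, as against 36.9%). These were 7 of the 16 matched promoters of cytosolic or shared enzymes, 9 of the 14 of mitochondrial enzymes and 2 of scaffolds. CACGTG, the E-box that MYC and MAX bind, was in 4 (12.1%, as against 10.2%), and TATAAA in 2, GARS and AIMP1 (6.06%, as against 5.53%). The palindromic NRF1 motif was in 1 (3.03%, as against 2.29%). The shares of all promoters were 10.7% for CCGGAAG, 35.7% for CCAAT, 7.43% for CACGTG, 11.9% for TATAAA and 1.36% for the NRF1 motif.

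Other genes of tRNA charging and use were set beside the family by fixed lists. Mitochondria lack a separate enzyme that joins glutamine to its tRNA. There, the QRSL1, GATB and GATC proteins convert glutamate that is already joined to the glutamine tRNA. Their genes had levels of 276, 172 and 237 per kb, within the range of the mitochondrial enzymes. MTFMT, which formylates the methionine tRNA that MARS2 charges, was at 50.2 per kb, below MARS2 at 85.9. The proofreading enzymes DTD1 and DTD2 were at 179 and 121 per kb, PRXD1 had no row, and AARSD1 was listed at a mean count of 0.210 but shares 96.0% of its transcript with a readthrough gene that has no row, so its value is uncertain. Selenocysteine is built on its own tRNA after SARS has joined serine to it. For this route, PSTK, SEPSECS and SEPHS2 were at 61.6, 90.1 and 1125 per kb. XPOT, the export factor of tRNA, was at 1980 per kb and TRNT1, which adds the CCA end, at 807.

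Genes listed under cytosolic and mitochondrial elongation showed a similar division between compartments. In the cytosol, EEF1A1 was at 44405 per kb, EEF1G at 10317, EEF1B2 at 4149 and EEF1D at 3242, whereas the tissue-restricted EEF1A2 was at 53.1. The EEF1G value is uncertain, since nearly all of its transcript (99.5%) is shared with another annotated gene, as is that of TSFM (94.7%). VARS, which associates with the EEF1 complex, was at 679 per kb, or 0.0658 times EEF1G. In mitochondria, TUFM, the counterpart of EEF1A1, was at 1936 per kb, or 0.0436 times EEF1A1, followed by TSFM at 650.5, GFM1 at 557 and GFM2 at 444. TUFM was above all 16 mitochondrial synthetases, and EEF1A1 was above all 18 cytosolic ones.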

How the data were processed

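Per the paper's methods and the labels, the authors prepared stranded poly(A) libraries, aligned reads to GRCh38 with STAR and normalized gene counts with DESeq2; the gene counter is not given in the sources used here. The deposited mean normalized count is a signal value, computed by the authors over all 6 libraries and not divided by transcript length. The deposited table also holds the authors' comparison of DOX with vehicle (fold change, its error, test statistic and p-values), which was not used. With no value of a single library analysed, the planned count test did not apply and no test was made, and library depth and the error of each level are unknown.

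Canonical, longest, coding and exon-union lengths came from GENCODE 44 (GRCh38). Of 19792 symbols, 17571 matched directly, 580 matched through a RefSeq synonym and 1641 were not matched. Promoters came from RefSeq (GRCh38.p14). Protein sequences were not used here. The members and lists were chosen with earlier results of these data known, and the motifs and the head-to-head distance after the levels were seen. Of the 41 genes that the rule takes, 2 are not reported here and entered no count or median of the family; all others were named. Helper functions were tested on simulated data. Python 3.11.15, numpy 2.4.6, pandas 2.3.3 and matplotlib 3.10.9 were used.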

Additional observations from a re-analysis of the deposited data

How the results depend on the processing

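The median ratio over the pairs and the number of pairs with the higher cytosolic enzyme stayed within 1.5 times their reported values under all alternatives run, which were 3 other lengths, no division by length, other partners (TARSL2, FARSA or FARSB alone), leaving out the EPRS pairs and, chosen after the data were seen, leaving out the SARS2 and VARS2 pairs. The median ranged from 12.5 to 17.3. It stayed at 17.3 with each other partner and without the SARS2 and VARS2 pairs. Those changes left the middle of the order in place, so they could not move the median. The cytosolic enzyme was higher in 14 of 16 pairs with the union of exons, in 15 of 16 with the longest transcript or with TARSL2, in 16 of 16 under the other settings that kept all pairs, and in 14 of 14 where pairs were left out. The ratio of the cytosolic to the mitochondrial median level, recomputed after the data were seen, fell to 8.79 with the union of exons and 8.46 with coding length. Single pairs moved more. With the longest transcript as length the histidine ratio was 0.940, with the union of exons it was 0.546 and the isoleucine ratio 0.748, and with TARSL2 as the threonine partner that ratio was 0.0508. Of 65 alternative values of single pair ratios, 42 stayed within 1.5 times, 19 moved further on the same side of 1 and 4 crossed 1. The median cytosolic level was 795 per kb with the union of exons and 8108 as an undivided count, and the mitochondrial median was 90.4 with the union of exons, 323 with coding length and 502.5 as an undivided count. The family's share of the total was 0.753% without the 10 highest genes. The percentile of a member among all genes moved by a median of 2.94 points and at most by 26.7 points (RARS2, from 85.7 to 59.1 with the union of exons). The levels rest on pooled means, so genes that share exons with another gene (SARS2, VARS2, EEF1E1) and small differences are the least certain. No paired analysis was possible because no values of single libraries were analysed; for the same reason leaving out a replicate and the planned comparison of DOX with vehicle were not run.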
